A study of Mus musculus with 60 samples.

Results

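The comparison described here is that of CH12F3 cells given idelalisib together with valemetostat against CH12F3 cells given valemetostat without idelalisib. The libraries were chosen by their titles, which gave 5 idelalisib plus valemetostat libraries and 8 valemetostat libraries, 13 of the 60 libraries of the series. They held 137926 of the 1219247 junctions deposited. CH12F3 is a mouse B-lymphoma line that switches to IgA on stimulation, and all 13 libraries came from cells wild type for activation-induced cytidine deaminase (AID) that had received anti-CD40, TGF-β and IL-4 for 72 h. The only labelled difference between the groups is idelalisib, since valemetostat was given in both, and the labels give neither dose nor timing for either compound. The read names placed all 13 libraries in 1 sequencing run. The series asks how the EZH2 inhibitors tazemetostat and valemetostat alter chromosomal translocations. The assay, LAM-HTGTS, starts by linear amplification from a cut made at a known site, the bait, and sequences the DNA that was joined to that cut end, so each junction marks a place where the bait was translocated or rejoined.

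Idelalisib inhibits the delta isoform of phosphoinositide 3-kinase, a kinase of B cell signalling whose inhibition is known to raise AID expression in mouse B cells. AID deaminates cytosines in the transcribed, repetitive switch regions that lie in front of the constant region genes of the immunoglobulin heavy chain locus (Igh). The resulting breaks are joined between mu and a downstream switch region, which changes the antibody class. AID also acts at a lower rate on other transcribed genes, and breaks there can be joined to breaks elsewhere. Valemetostat inhibits EZH1 and EZH2, the enzymes that methylate histone H3 at lysine 27.

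Depth ran from 9294 to 19186 junctions (median 10315) in the idelalisib plus valemetostat libraries and from 7419 to 14805 (median 8767.5) in the valemetostat libraries. Identical repeats of a junction made up 9.90% to 10.7% of a library with idelalisib and 9.32% to 12.4% without it. Outside the bait window, a pair of libraries shared between 0.784% and 2.34% of the positions of the library with fewer positions. No read name occurred in more than 1 library. Shares are percents of a library's own junctions and carry no information on the number of translocations per cell. Whether replicates were separate cultures is not stated in the labels, so p-values reflect the spread among these libraries alone, part or all of which may be technical. The smallest p that the exact permutation test of 5 against 8 libraries can give is 0.000777.

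With idelalisib a larger share of the junctions lay in Igh and at other AID targets, while the share around the bait did not pass a test. The Igh locus held 3.81%, 3.77%, 3.89%, 3.95% and 3.46% of all junctions in the idelalisib plus valemetostat libraries, against 1.09% at the lowest, 1.32% at the median and 1.68% at the highest in the valemetostat libraries. Every idelalisib library lay above every valemetostat library. The means were 3.78% ± 0.189 (SD, n = 5) with idelalisib and 1.37% ± 0.210 (SD, n = 8) without it, a difference of 2.41 percentage points (95% interval 2.15 to 2.66) and a ratio of 2.76 (exact permutation test, adjusted p = 0.00155 over 4 shares).

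Junctions off chromosome 15 and off the immunoglobulin loci are called genome-wide, and the off-target share counts how many percent of them lay in 21 genes known as targets of AID outside Igh. The share was 0.948%, 0.889%, 1.25%, 1.22% and 0.993% in the idelalisib plus valemetostat libraries and 0.328% at the lowest, 0.439% at the median and 0.626% at the highest in the valemetostat libraries. The groups did not overlap. The difference was 0.602 points (95% interval 0.445 to 0.763), a ratio of 2.32 (exact permutation test, adjusted p = 0.00155).

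Genome-wide junctions as a whole were 60.4% ± 2.25 of a library with idelalisib and 63.4% ± 3.65 without it (SD, n = 5 and 8), a difference of -2.96 points with an interval of -6.99 to 1.13 that missed the threshold (exact permutation test, adjusted p = 0.179). It passed at -3.84 points when valemetostat replicate 2, the library with the lowest value of its group, was left out (exact permutation test, adjusted p = 0.0488). The window of 1 Mb on each side of the bait held 31.9% ± 2.11 and 31.1% ± 3.46, which differed by 0.790 points with an interval of -3.09 to 4.65 (exact permutation test, adjusted p = 0.657). For the share of genome-wide junctions per chromosome, none of the 19 tested passed (0.0% called by the exact permutation test after adjustment, and 0 with an unadjusted p under the threshold of 0.05).

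**Figure D1:**
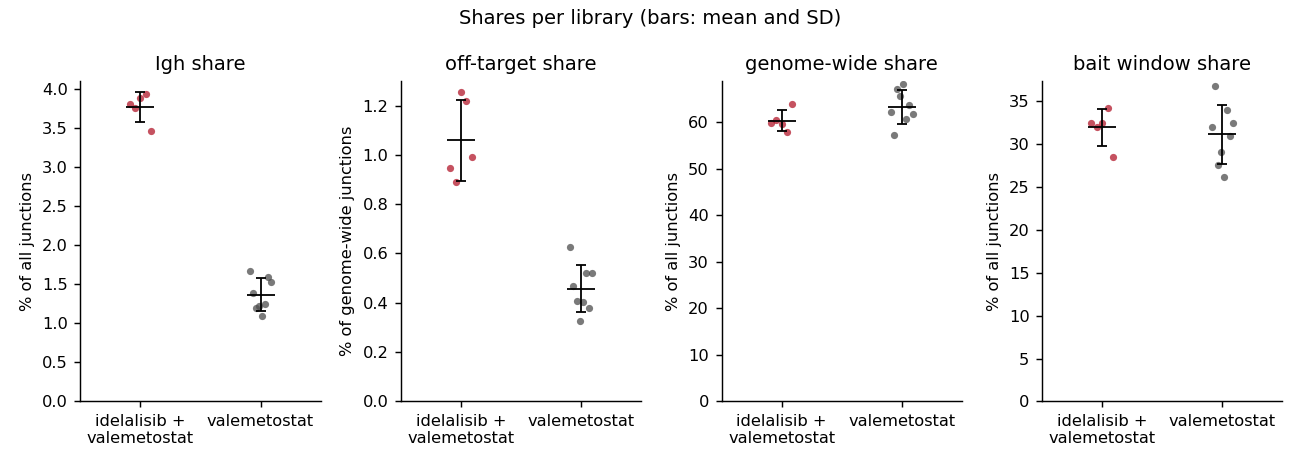
Percent of junctions in Igh, at the listed off-target genes, genome-wide and in the bait window, with idelalisib plus valemetostat on the left and valemetostat on the right of each panel. Points are libraries and bars are the mean and SD. The Igh points sit between 3.46% and 3.95% with idelalisib and between 1.09% and 1.68% without it, whereas the genome-wide and bait window points overlap.

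All 5 switch regions followed the rise of Igh when measured as a percent of all junctions. These are the mu region, where switching starts, gamma3, gamma1 and gamma2b, which serve the IgG classes of those names, and alpha, which serves IgA. In mm9 the densest 1 kb of each lay on chromosome 12 at 114663000 (mu), 114602000 (gamma3), 114574000 (gamma1), 114551000 (gamma2b) and 114501000 (alpha), so the gamma and alpha peaks stood 61 kb, 89 kb, 112 kb and 162 kb from the mu peak. Of 8 parts of Igh, 5 were called (62.5%, exact permutation test), and these were the switch regions.

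Mu held 1.82%, 1.56%, 1.75%, 1.81% and 1.38% of all junctions with idelalisib, against 0.527%, 0.621% and 0.759% at the lowest, median and highest of the valemetostat libraries. Alpha held 1.17%, 1.48%, 1.39%, 1.30% and 1.17% with idelalisib, against 0.420%, 0.520% and 0.620% at the lowest, median and highest without it. Neither region's groups overlapped, and the ratios of means were 2.56 and 2.51 (exact permutation test, adjusted p = 0.00155 for both).

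The gamma regions held far fewer junctions. Gamma1 had 36, 35, 27, 29 and 66 junctions in the idelalisib plus valemetostat libraries, 193 in all, against 56 in the 8 valemetostat libraries. As shares these were 0.327% ± 0.0552 and 0.0724% ± 0.0521 (SD, n = 5 and 8), with no overlap and a ratio of 4.52 (exact permutation test, adjusted p = 0.00155). Gamma2b had 23, 21, 30, 33 and 62 junctions with idelalisib and from 3 to 7 per library without it. Its shares of 0.279% ± 0.0435 and 0.0543% ± 0.0200 did not overlap either, and their ratio was 5.14 (exact permutation test, adjusted p = 0.00155).

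Gamma3 had 15, 8, 18, 19 and 33 junctions with idelalisib and 20 in all 8 valemetostat libraries, 8 of them in valemetostat replicate 2. That library, at 0.0934%, lay above the lowest idelalisib library, at 0.0861%, so the groups overlapped. The means of 0.154% ± 0.0391 and 0.0263% ± 0.0287 had a ratio of 5.86 (exact permutation test, adjusted p = 0.00249). The remainder of Igh was nearly empty, with 7 and 4 junctions between mu and alpha outside the switch regions, 13 and 25 on the variable side of mu and 12 and 8 beyond alpha.

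Measured within the Igh junctions, the makeup differed in gamma2b. Gamma2b held 6.34%, 6%, 7.48%, 7.97% and 9.34% of the Igh junctions with idelalisib, against 2.47%, 3.61% and 5.88% at the lowest, median and highest of the valemetostat libraries. The groups did not overlap, and the difference was 3.53 points (95% interval 2.05 to 5.01, exact permutation test, adjusted p = 0.00622), the only part called of 8 (12.5%). Without the 3 libraries of more than 12000 junctions the difference of 2.72 points fell short of the threshold (exact permutation test, adjusted p = 0.0762).

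The other regions missed the threshold in this measure. Gamma1 held 8.72% ± 1.69 and 5.08% ± 3.07 of the Igh junctions, and gamma3 held 4.09% ± 1.05 and 1.91% ± 2.07 (SD, n = 5 and 8, exact permutation test, adjusted p = 0.0787 for both). Mu held 44.0% ± 3.27 and 47.7% ± 2.79, and alpha 34.5% ± 3.33 and 38.0% ± 2.69 (exact permutation test, adjusted p = 0.0787 for both). For gamma1 the difference passed at 4.48 points without valemetostat replicate 1, in which gamma1 held 16 of 146 Igh junctions (exact permutation test, adjusted p = 0.0303). For gamma3 it passed at 2.87 points without valemetostat replicate 2 (exact permutation test, adjusted p = 0.0101).

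**Figure D2:**
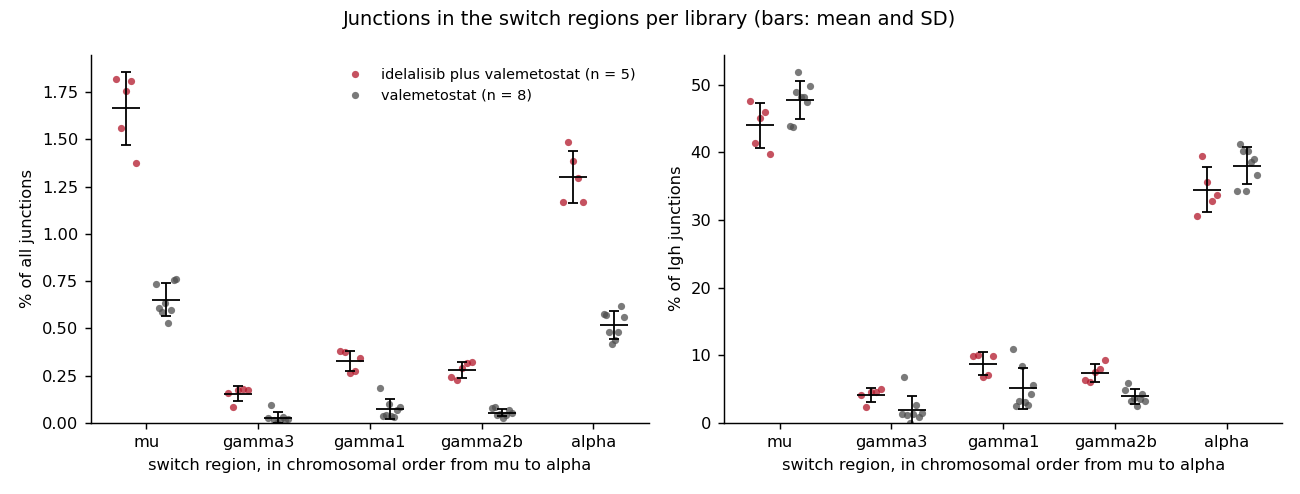
Percent of all junctions (left panel) and of Igh junctions (right panel) in the 5 switch regions, in chromosomal order from mu to alpha, with idelalisib plus valemetostat left of valemetostat at each region. Points are libraries and bars are the mean and SD. In the left panel the groups separate at every region except gamma3, and in the right panel they separate at gamma2b.

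The strand of the junctions in mu also differed between the groups. Plus-strand junctions, by the strand column of the deposited lists, made up 54.9%, 50.3%, 56.9%, 50.5% and 51.9% of the mu junctions with idelalisib, against 57.7%, 61.4% and 69.6% at the lowest, median and highest without it. No idelalisib library reached the lowest valemetostat library. The difference of means was -9.18 points (95% interval -13.6 to -5.03, exact permutation test, adjusted p = 0.00311 over 4 measures of position and strand).

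In alpha the plus-strand percent was 53.4% ± 2.25 with idelalisib and 58.9% ± 4.59 without it (SD, n = 5 and 8), which missed the threshold (exact permutation test, adjusted p = 0.0559). It passed at -6.60 points without valemetostat replicate 4 (exact permutation test, adjusted p = 0.00758). The median position of the junctions within mu differed by 32.4 bases with an interval of -43.9 to 114, and within alpha by -35.5 bases with an interval of -133 to 60.01, and neither reached the threshold (exact permutation test, adjusted p = 0.434 for both).

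Around the bait a smaller share of the junctions lay within 1 kb above the break with idelalisib, and a larger share lay between 1 kb and 20 kb from it on both sides. The densest 200 bp of the 5 DMSO libraries that lack AID, 61818800 to 61818999 on chromosome 15 (mm9), marked the break. Below and above mean lower and higher coordinates. Within 1 kb above the break lay 37.6%, 36.4%, 36.7%, 37.0% and 37.3% of the bait window junctions with idelalisib, against 39.0%, 39.9% and 42.4% at the lowest, median and highest without it. These did not overlap, and the difference was -3.12 points (95% interval -4.36 to -1.94, exact permutation test, adjusted p = 0.00505). Of 13 measures around the bait, 3 were called (23.1%).

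The other called zones lay between 1 kb and 20 kb from the break. Below it this zone held 16.5% ± 1.21 with idelalisib and 14.3% ± 0.702 without it (SD, n = 5 and 8), with no overlap (exact permutation test, adjusted p = 0.00505). Above it the zone held 24.6% ± 0.432 and 21.3% ± 1.86, with the lowest idelalisib library at 24.0022% just under the highest valemetostat library at 24.0247% (exact permutation test, adjusted p = 0.0168). When identical junctions were counted 1 time, the 3 differences were -3.35, 1.67 and 2.99 points and none reached the threshold (exact permutation test, adjusted p = 0.0909, 0.0606 and 0.0606). The rest of chromosome 15, outside the bait window, held 3.84% ± 0.141 and 4.09% ± 0.278 of all junctions (exact permutation test, adjusted p = 0.145), and this passed at -0.322 points without valemetostat replicate 7 (exact permutation test, adjusted p = 0.0369).

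**Figure D3:**
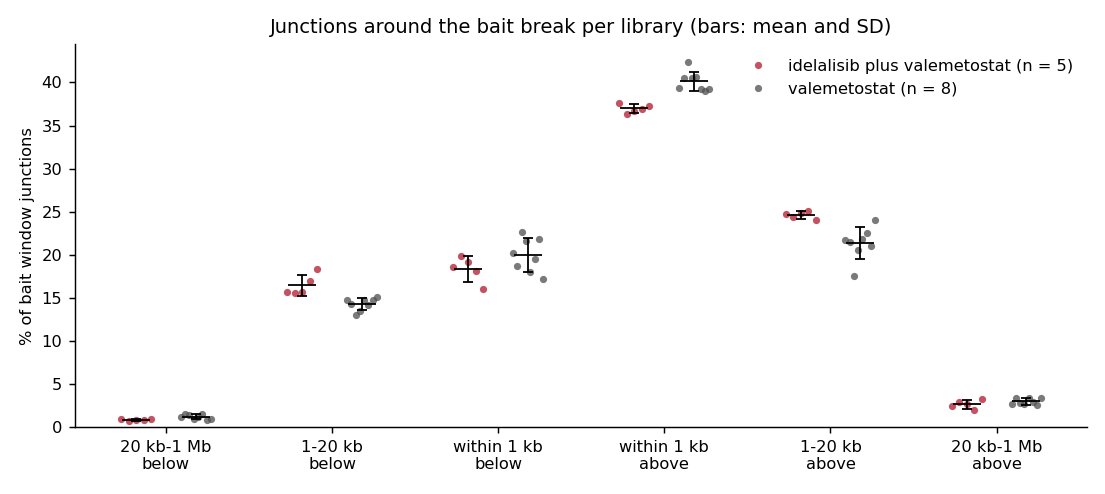
Percent of the bait window junctions in 6 zones by distance below and above the break, with idelalisib plus valemetostat left of valemetostat. Points are libraries and bars are the mean and SD. The idelalisib points lie lower within 1 kb above the break and higher between 1 kb and 20 kb below it.

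Of the 21 listed AID targets, 16 had at least 10 junctions over the 13 libraries and were tested, and 5 were called, all higher with idelalisib (31.2%, exact permutation test). Genes with few junctions could pass this minimum through 1 group alone. The mean was higher with idelalisib at all 16, by ratios of 1.04 to 4.35 with a median of 2.28. The 5 untested genes, Il4ra, Birc3, Cd79b, Socs1 and Bcl6, held 8 junctions with idelalisib and 8 without it. A gene with no junction in a valemetostat library can still hold up to 0.0296% to 0.0633% of that library's genome-wide junctions, the shares that 3 junctions would make, and this limit covers counting error only.

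Zfp36l1, an RNA-binding protein that promotes decay of AU-rich messenger RNAs, held the most junctions of the list. It took 0.246%, 0.196%, 0.179%, 0.312% and 0.195% of the genome-wide junctions with idelalisib, against 0.0173%, 0.0581% and 0.143% at the lowest, median and highest without it. The groups did not overlap, and the ratio was 3.85 (exact permutation test, adjusted p = 0.00622). Its junctions were concentrated in the 1 kb from 81213000 on chromosome 12 (mm9), which held 39 of 79 with idelalisib and 15 of 27 without it.

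Mir17hg, the host transcript of a microRNA cluster that promotes B cell growth, took 0.0878%, 0.142%, 0.0976%, 0.132% and 0.106% with idelalisib. Without it the lowest, median and highest were 0%, 0.0286% and 0.0719%. These groups did not overlap either (ratio 3.52, exact permutation test, adjusted p = 0.00622).

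Pim1, a serine/threonine kinase and a classic target of aberrant AID activity, took 0.0878%, 0.0178%, 0.212%, 0.115% and 0.0814% with idelalisib, against 0%, 0.0176% and 0.0553% at the lowest, median and highest without it. Idelalisib plus valemetostat replicate 2, with 1 junction, lay within the valemetostat range. The ratio of means was 4.35 (exact permutation test, adjusted p = 0.0249). The 1 kb from 29628000 on chromosome 17 (mm9) held 26 of its 36 junctions with idelalisib.

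Cd83, a surface protein of activated B cells, averaged 0.0933% ± 0.0374 with idelalisib and 0.0351% ± 0.0252 without it (SD, n = 5 and 8, ratio 2.66, exact permutation test, adjusted p = 0.0280). Nfkbia, the inhibitor that holds NF-κB in the cytoplasm, averaged 0.112% ± 0.0473 and 0.0428% ± 0.0301 (ratio 2.61, exact permutation test, adjusted p = 0.0298). At both genes the groups overlapped. The Pim1 call was lost without idelalisib plus valemetostat replicate 4 or 5 (exact permutation test, adjusted p = 0.0593 and 0.0539). The Cd83 call was lost without those same libraries (exact permutation test, adjusted p = 0.0593 for each) and without valemetostat replicate 3 or 4 (exact permutation test, adjusted p = 0.0525 and 0.0505). The Nfkbia call was lost without idelalisib plus valemetostat replicate 3, 4 or 5 (exact permutation test, adjusted p = 0.0840, 0.0593 and 0.0593) or valemetostat replicate 2, 3 or 4 (exact permutation test, adjusted p = 0.0525 for each). With the depth of the libraries as a covariate Pim1, Cd83 and Nfkbia all missed the threshold (Freedman-Lane permutation test, adjusted p = 0.0539, 0.0596 and 0.0567). They also missed it without the 3 libraries of more than 12000 junctions (exact permutation test, adjusted p = 0.0762, 0.152 and 0.0914), and Cd83 missed it when every library was thinned to 7419 junctions (exact permutation test, adjusted p = 0.0518).

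The 11 other tested genes did not pass. Tnfaip3, the ubiquitin-editing enzyme A20 that restrains NF-κB, averaged 0.0649% ± 0.0551 with idelalisib and 0.0215% ± 0.0227 without it (SD, n = 5 and 8, exact permutation test, adjusted p = 0.120). It passed at a difference of 0.0502 points without valemetostat replicate 8 (exact permutation test, adjusted p = 0.0364). Bach2, a transcriptional repressor of plasma cell fate, averaged 0.0631% ± 0.0352 and 0.0279% ± 0.0256 (exact permutation test, adjusted p = 0.160). Irf4 and Cd74, which act in plasma cell differentiation and antigen presentation, had ratios of 2.30 and 2.40 (exact permutation test, adjusted p = 0.229 and 0.171). Mir155hg, Junb, Il21r and Mir142hg had ratios between 1.29 and 1.51. Ebf1 and Pax5, transcription factors of B cell identity, and Aff3 had ratios of 1.11, 1.04 and 1.07.

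The 12 libraries of cells without AID, over all treatments, show which of these genes gathered junctions in its absence. Of their 106165 genome-wide junctions, 2 lay in Zfp36l1, 7 in Mir17hg, 1 in Pim1, 3 in Cd83 and 3 in Nfkbia. In contrast, Ebf1 held 62 (0.0584%), beside 0.0601% with idelalisib and 0.0544% without it in AID wild-type cells. Aff3 held 31 (0.0292%), beside 0.0297% and 0.0278%, and Bach2 held 32 (0.0301%), beside 0.0631% and 0.0279%. The other tested genes that were not called held between 1 (Junb) and 10 (Cd74) junctions without AID. Counts were not scaled to gene length. In the 13 libraries the junctions of Ebf1 spread over chr11:44430207-44806258, far wider than those of Zfp36l1 at chr12:81208530-81216033 (mm9). The libraries without AID came from other sequencing runs.

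**Figure D4:**
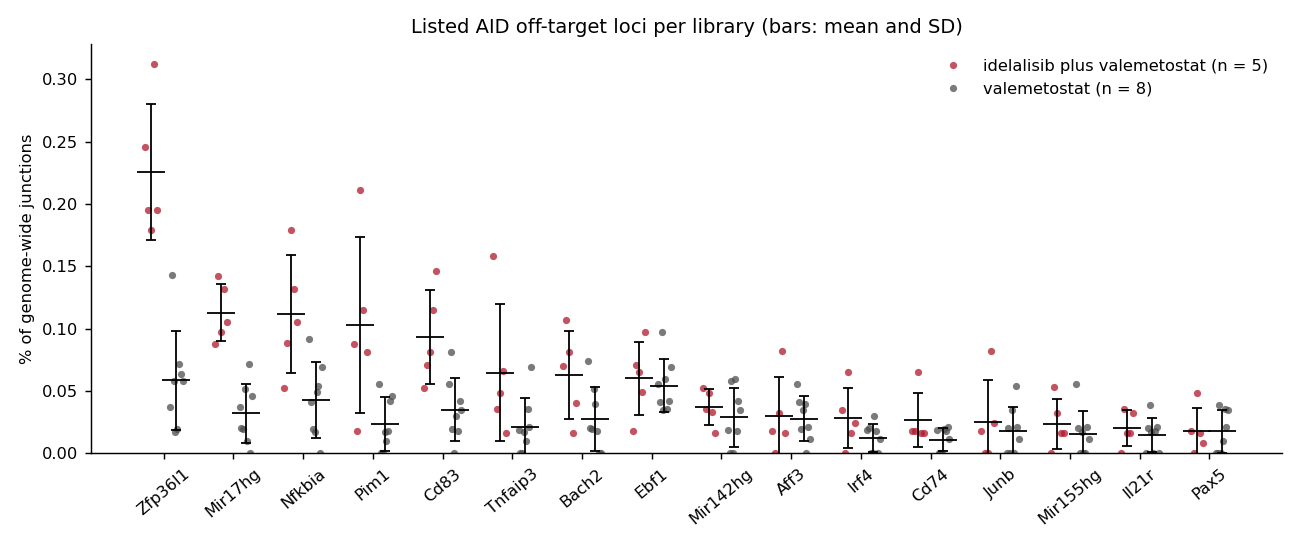
Percent of genome-wide junctions in each of the 16 tested AID targets, ordered by the mean with idelalisib, with idelalisib plus valemetostat left of valemetostat. Points are libraries and bars are the mean and SD. Zfp36l1 and Mir17hg are the genes whose groups do not overlap, and at Ebf1, Aff3 and Pax5 the means lie close together.

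AID prefers the tetranucleotide AGCT, which reads the same on both strands, and breaks outside Igh are known to gather close to transcription starts. The RefSeq promoter sequences (GRCm38.p6) of Zfp36l1, the gene with the most junctions, and of Pim1, the gene with the largest ratio, are therefore shown, from 250 bases before to 50 after the start, with AGCT in capitals. Zfp36l1 lies on the minus strand at chr12:80112964-80113263 and the first Pim1 start on the plus strand at chr17:29490535-29490834. This build differs from mm9, so no junction was placed on these bases.
Zfp36l1: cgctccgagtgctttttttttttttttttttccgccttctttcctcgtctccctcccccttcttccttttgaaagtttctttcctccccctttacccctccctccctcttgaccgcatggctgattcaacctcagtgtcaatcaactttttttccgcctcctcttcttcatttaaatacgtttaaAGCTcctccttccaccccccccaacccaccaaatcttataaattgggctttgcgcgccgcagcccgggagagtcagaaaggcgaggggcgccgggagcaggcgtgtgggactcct
Pim1: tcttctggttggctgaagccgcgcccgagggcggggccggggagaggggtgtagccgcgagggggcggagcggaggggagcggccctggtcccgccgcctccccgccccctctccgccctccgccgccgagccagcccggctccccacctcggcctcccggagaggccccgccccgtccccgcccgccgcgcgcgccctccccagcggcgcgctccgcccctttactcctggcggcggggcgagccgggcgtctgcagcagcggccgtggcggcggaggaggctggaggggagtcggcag
The Zfp36l1 window held AGCT 1 time and the Pim1 window 0 times, which says only that these letters are not in the Pim1 window. Among 32851 RefSeq promoters of the same length, 77.6% held it.

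Without reference to a gene list, tallies in fixed windows were compared by limma voom, relative to the genome-wide junctions of each library and with Benjamini-Hochberg adjustment. Of 183 windows of 1 Mb with a mean tally of at least 5, 11 were called (6.01%), of which 9 were higher (4.92%) and 2 lower (1.09%) with idelalisib. Of 43 windows of 100 kb with a mean tally of at least 2, 24 were called (55.8%), all of them higher. The minimum was set over the same 13 libraries, so a window could pass it through the group in which it was high. Keeping windows by the 20 AID wild-type libraries with DMSO or tazemetostat instead gave 30 of 58 windows of 100 kb, all higher and 22 of them shared, and 9 of 241 windows of 1 Mb, all higher. Among those 20 libraries, 5 with DMSO and 5 with tazemetostat had also received idelalisib. A window high with idelalisib could therefore pass this filter through them too.

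Outside Igh 21 of 40 windows of 100 kb were called (52.5%), and 6 of these held a listed gene, namely Zfp36l1, Pim1, Mir17hg, Cd83, Nfkbia and Tnfaip3. The 21 include chr7:133500000-133599999 and chr11:66900000-66999999, which met the minimum through the idelalisib plus valemetostat libraries alone. Both fell short of it in the valemetostat libraries and in the other AID wild-type libraries, so their calls carry no weight. Of the other called windows, only those at Zfp36l1, Mir17hg, Cd83, Nfkbia, chr8:97200000, chr15:74700000 and chr15:82000000 met it in the valemetostat libraries alone. The rest, those on chromosomes 1 and 6 among them, needed the idelalisib plus valemetostat libraries to meet it. Their adjusted p-values therefore belong to windows kept in part by the group in which they were high. The median log2 change over all 40 was 1.13. In 8 of the 21, chr7:133500000-133599999 among them, the groups did not overlap, and the fitted folds ran from 1.96 to 13.6. In every tested window outside Igh that was not called the groups overlapped, so these 8 are also the count over all 40. The windows with the largest changes held no listed gene, and no gene is named in them because no mm9 annotation was used.

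The largest change was at chr1:36300000-36399999 (mm9). It held 14, 14, 16, 20 and 26 junctions in the idelalisib plus valemetostat libraries, 0.259% ± 0.0430 of the genome-wide junctions, against 8 junctions in the 8 valemetostat libraries, 0.0176% ± 0.0238 (SD, n = 5 and 8). The lowest idelalisib library, at 0.212%, lay above the highest valemetostat library, at 0.0719%, and the log2 change was 3.77 ± 0.421 (SE, limma voom, adjusted p = 1.19e-16). The 1 kb from 36366000 held 32 of the 90 junctions with idelalisib, and the 90 lay at 89 different positions and strands.

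The next was chr6:122500000-122599999, with 16, 13, 14, 12 and 18 junctions with idelalisib and 9 in all valemetostat libraries (log2 change 3.32 ± 0.436 (SE), limma voom, adjusted p = 1.47e-12). Its groups did not overlap, and the 1 kb from 122505000 held 33 of the 73. The window chr11:104900000-104999999 held 33 junctions with idelalisib, 16 of them in replicate 5, and 3 without it (limma voom, adjusted p = 1.90e-08).

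On chromosome 14 the windows from 32200000 and 32400000 both had a log2 change of 2.30 (limma voom, adjusted p = 8.09e-06 and 5.08e-06). In the window from 32400000 41 of 46 junctions with idelalisib and 14 of 15 without it lay in the same 1 kb, from 32427000. The window chr8:97200000-97299999 held the most junctions of the called windows without a listed gene, with 24, 18, 24, 23 and 42 with idelalisib and 58 in all without it. Its shares were 0.370% ± 0.0400 and 0.122% ± 0.0726 (SD, n = 5 and 8) and did not overlap (log2 change 1.73, limma voom, adjusted p = 6.65e-06). The window chr2:102700000-102799999 had a log2 change of 1.99 (limma voom, adjusted p = 0.000149). The window chr7:133500000-133599999 held 23 junctions with idelalisib and 7 without it, and met the minimum through the idelalisib libraries alone, since it fell short of it both in the valemetostat libraries and in the other AID wild-type libraries, so no test is given for it.

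In the 12 libraries without AID these 21 windows held 1 to 16 junctions each, or 0.000942% to 0.0151% of the genome-wide junctions. The means in the idelalisib plus valemetostat libraries ran from 0.0536% to 0.370%, and those in the valemetostat libraries from 0.00633% to 0.122%.

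Of the 9 higher windows of 1 Mb, 4 held Igh, Zfp36l1, Pim1 and Cd83, and the other 5 were those around the windows named on chromosomes 1, 2, 6, 8 and 14. That on chromosome 2, from 102000000, had a log2 change of 0.82 (limma voom, adjusted p = 0.0403) and was not called with limma trend (adjusted p = 0.122) or when any 1 of 10 of the 13 libraries was left out, all but valemetostat replicates 3, 6 and 7.

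Both 1 Mb windows that were lower with idelalisib lay on chromosome 15 outside the bait window, which the library size leaves out. The window from 63000000 held 7, 1, 6, 10 and 5 junctions with idelalisib and 5 to 14 per library without it (log2 change -1.11, limma voom, adjusted p = 0.0381). The window from 89000000 held 4 or 5 per idelalisib library and 4 to 18 without it (log2 change -1.07, limma voom, adjusted p = 0.0403). Neither was called without idelalisib plus valemetostat replicate 5 (limma voom, adjusted p = 0.246 and 0.316), with limma trend (adjusted p = 0.0914 and 0.122) or with windows kept by the other AID wild-type libraries (limma voom, adjusted p = 0.0517 and 0.0604). The call of the first was also lost without idelalisib plus valemetostat replicate 2, at -0.61, or valemetostat replicate 1, 4, 5 or 6, and that of the other without valemetostat replicate 2, 4, 5, 6 or 8.

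**Figure D5:**
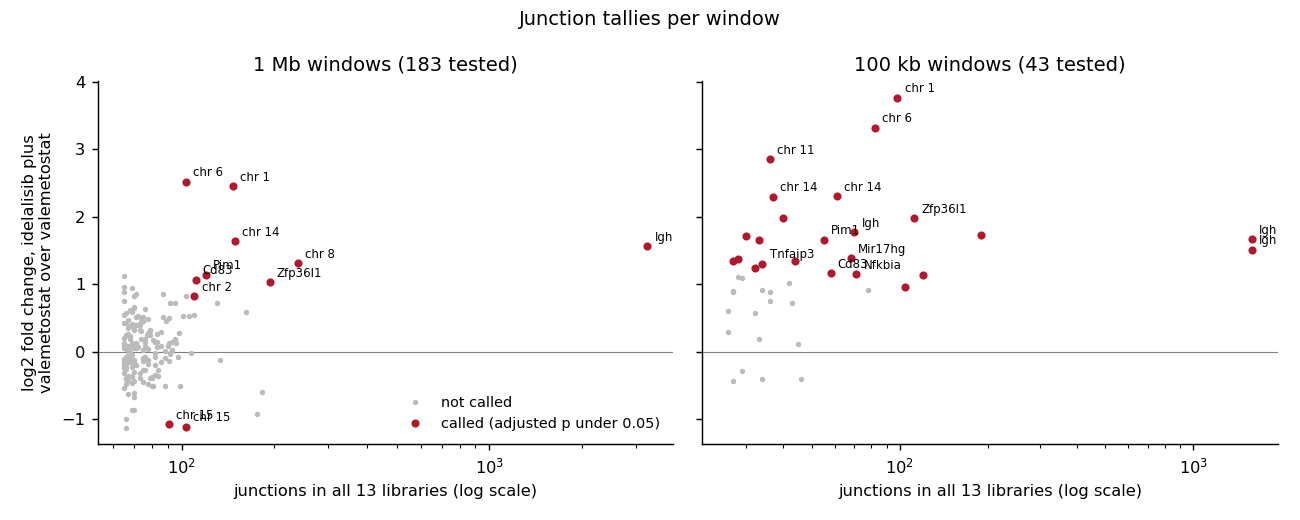
Log2 fold change of idelalisib plus valemetostat over valemetostat (vertical axis) against the junctions per window over all 13 libraries (horizontal axis, log scale), for 1 Mb windows on the left and 100 kb windows on the right. Each point is a window and red points were called by limma voom. In the right panel all 24 red points lie above 0, and the windows on chromosomes 1 and 6 reach 3.77 and 3.32.

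The same contrast exists in the series with DMSO and with tazemetostat in place of valemetostat, but there the idelalisib libraries and those without it came from separate sequencing runs, so idelalisib and run cannot be told apart. The Igh share was 3.79% ± 0.121 with idelalisib and 3.45% ± 0.181 without it in DMSO, and 3.68% ± 0.274 and 2.74% ± 0.296 in tazemetostat (SD, n = 5 each). The difference with valemetostat was larger by 2.06 points than that with DMSO and by 1.46 points than that with tazemetostat (Freedman-Lane permutation test, adjusted p = 4e-05 for both, from the smallest p that the draws can give, 1e-05).

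The off-target share was 1.05% ± 0.189 with idelalisib and 0.686% ± 0.167 without it in DMSO, and 1.02% ± 0.160 and 0.663% ± 0.147 in tazemetostat (SD, n = 5 each). These differences were smaller than that with valemetostat by 0.241 and 0.248 points, which missed the threshold (Freedman-Lane permutation test, adjusted p = 0.120 and 0.0981). Gamma2b, the part called within Igh with valemetostat, had means in the opposite order in both: it took 4.58% ± 0.989 of the Igh junctions with idelalisib and 5.87% ± 1.08 without it in DMSO, and 6.44% ± 1.002 and 7.11% ± 1.56 in tazemetostat (SD, n = 5 each). Gamma1, which was not called with valemetostat, took 8.60% ± 0.826 of the Igh junctions with idelalisib and 3.63% ± 0.663 without it in tazemetostat, and 3.67% ± 1.10 and 2.95% ± 0.808 in DMSO (SD, n = 5 each). The plus-strand percent in mu was 50.9% ± 3.09 with idelalisib and 49.7% ± 3.53 without it in DMSO, and 50.6% ± 2.81 and 48.8% ± 5.12 in tazemetostat, whereas valemetostat without idelalisib had 62.1% ± 3.70.

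Of the 21 called 100 kb windows outside Igh, 18 had a higher mean with idelalisib in DMSO and 18 in tazemetostat. The same count was not taken over all 40 tested windows, whose median log2 change with valemetostat was 1.13. Whether the called windows differ from the rest in this was not tested. The chromosome 1 window held 0.0994% ± 0.0348 with idelalisib and 0.0380% ± 0.0243 without it in DMSO and 0.171% ± 0.0282 and 0.0264% ± 0.0228 in tazemetostat (SD, n = 5 each). The chromosome 6 window held 0.126% ± 0.0586 with idelalisib and 0.0285% ± 0.0244 without it in DMSO and 0.207% ± 0.0716 and 0.0434% ± 0.0221 in tazemetostat.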

How the data were processed

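LAM-HTGTS junctions were compared between 5 idelalisib plus valemetostat and 8 valemetostat libraries of CH12F3 cells. Each deposited list holds the chromosome, position, read name, score and strand of every junction, without a header. The deposited score ran from 16 to 222, is not explained in the files and entered no test. Positions are in mm9, per the submitters' processing notes, and reads were paired ends of 250 bases from a MiSeq, per the labels' protocols. Which aligner and junction caller were used was not given in the sources used here.

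Percents per library were derived in Python 3.11.15 (pandas 2.3.3, numpy 2.4.6). Means were tested by exact two-sided permutation over all 1287 regroupings, with Benjamini-Hochberg adjustment within each family of measures and a threshold of 0.05, and 95% intervals by inverting the test. Interactions used Freedman-Lane permutation tests with 100000 draws. Windows were fitted by voom in limma 3.58.1 under R 4.3.3, with adjusted p over all windows tested. Figures were drawn with matplotlib 3.10.9.

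The 21 off-target genes and their mm9 intervals, extended by 5 kb on each side, were written from knowledge. A RefSeq gene table of a later build held 20 of them, with chromosomes and gene order as listed. The start of Mir155hg was adjusted to the junctions of libraries outside this comparison. Members, lists and tests were chosen with earlier results of these data known. Named are the parts of Igh, the bait zones, listed genes with at least 10 junctions, and per window size up to 10 called windows with the largest rise and fall, of which not all are printed.

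On simulated data for these libraries, limma voom recovered 43.2% of 2-fold and 100% of 4-fold changes among 183 windows of 1 Mb, with 5.04% of calls false. Among 43 windows of 100 kb it recovered 31.5% and 95.4%, with 7.69% of calls false. Each simulation raised 18 windows of 1 Mb or 4 of 100 kb, lowered none and used 1 fixed spread between libraries. Only windows already kept in the real data were simulated. These rates therefore do not cover the choice of windows or the larger share called at 100 kb. Alternatives covered identical junctions counted 1 time, thinning to 7419 junctions, other denominators and scales, wider intervals, a depth term, other filters and each library left out.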

Additional observations from a re-analysis of the deposited data

Results flagged for a closer look

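Some values of single libraries stood apart from their group by Dixon's test, in 10 of 106 groups of values over 53 measures. Chance flags about 1 in 20 groups.

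In gamma3, idelalisib plus valemetostat replicate 2 held 0.0861% of all junctions, against 0.158% in the nearest library of its group, and valemetostat replicate 2 held 0.0934% of all junctions and 6.72% of Igh junctions, against 0.0327% and 2.63% in the nearest. In gamma1, valemetostat replicate 1 held 0.184% of all junctions, against 0.102% in the nearest. Between mu and alpha outside the switch regions, valemetostat replicate 7 held 3 junctions, which made 2.54% of its Igh junctions and 0.0404% of all. In alpha, 49.5% of the junctions of idelalisib plus valemetostat replicate 1 lay on the plus strand, against 53.7% in the nearest library. Cd74 held 0.0651% of the genome-wide junctions of idelalisib plus valemetostat replicate 3, as 4 junctions, against 0.0178% in the nearest library. Zfp36l1 held 0.143% in valemetostat replicate 2, against 0.0719% in the nearest, and Mir155hg 0.0553% in valemetostat replicate 1, as 3 junctions.

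The idelalisib difference in the Igh share was larger with valemetostat than with DMSO by 2.06 points and than with tazemetostat by 1.46 points (Freedman-Lane permutation test, adjusted p = 4e-05 for both), in contrasts whose runs cannot be told apart from idelalisib.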

How the results depend on the processing

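Of 1690 values recomputed under alternatives, 1557 kept their direction and their side of the threshold or, for counts, stayed within 1.5 times. The Igh and off-target shares passed under all alternatives run except the replicate block, which pairs libraries 1 to 5 by number and cannot give an exact p under 0.0625. There the differences were 2.46 and 0.612 points (exact sign-flip test, adjusted p = 0.125 for both). The deviations of same-numbered libraries correlated at -0.0293 to 0.169 over 1 Mb windows, where numbers 3 and 4 matched best with their own, and at -0.171 to 0.229 over 100 kb windows, where numbers 2 and 4 did, so the numbers were not taken as a pairing. In the limma fit with the block 8 windows of 1 Mb were called, all 8 shared with the fit without it, and 19 of 100 kb, 17 of them shared.

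Relative to the junctions that lay outside the bait window, the genome-wide difference passed at -3.26 points, and its differences from DMSO and tazemetostat at -2.96 and -2.02. All other junctions in this denominator lie in Igh, the light chain loci and the rest of chromosome 15. A larger Igh share therefore lowers the genome-wide share, and these passes cannot be read as results separate from that of Igh. On the logit scale the genome-wide difference from DMSO (-0.230) and the off-target differences from DMSO (0.418) and tazemetostat (0.413) passed. Leaving out single libraries gave -3.87 to -2.24 for the genome-wide share, -6.28 to -4.66 for its difference from DMSO, and 0.179 to 0.304 and 0.195 to 0.305 for the off-target differences from DMSO and tazemetostat. These passed in some cases. With the minimum tally doubled 6 of 10 windows of 1 Mb and 15 of 15 of 100 kb were called, and with no minimum 6 of 21993 of 100 kb, where many more windows were tested. Without a minimum the 100 kb calls were lost at chr8:97200000 (limma voom, adjusted p = 0.162) and chr2:102700000 (adjusted p = 0.810). They were also lost at Zfp36l1 and both chromosome 14 windows (limma voom, adjusted p = 0.220 for each).

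Directions turned where differences were close to 0. For Igh between mu and alpha the values were 0.0418 (thinned), 0.0338 (wider switch regions), 0.304 (replicate block) and 0.00444 (depth term), and -0.139 to 0.237 with libraries left out. The mu position turned to -17.1 bases when thinned, Pax5 to -0.000529 when thinned and -0.0105 with wider intervals, and Il21r to -0.00484 with wider intervals and -0.0022 without deep libraries. Ebf1 turned to -0.000231 with a depth term and -0.000226 without deep libraries, and Aff3 to -0.0082 with the block. Left-out libraries gave -0.00704 to 0.00517 for Pax5, -0.0112 to 0.00936 for Aff3, -0.00721 to 0.0133 for Junb, -0.00358 to 0.0164 for Ebf1 and -0.450 to 4.19 for the plus strand from 20 kb to 1 Mb above the bait. The cause was not tested. With 3 junctions making 0.0244% to 0.0633% of a library's genome-wide junctions, shares of single genes are coarse.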

Other observations

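Beside the listed genes, the other antigen receptor loci gave few junctions in either group. The kappa light chain locus held 24 junctions in the idelalisib plus valemetostat libraries and 27 in the valemetostat libraries, and the lambda locus 4 and 4.

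Within mu the junctions were concentrated in both groups. The densest 1 kb held 59.5% ± 3.73 of the mu junctions with idelalisib and 62.4% ± 4.90 without it, and the 1 kb above it 7.41% ± 2.78 and 3.94% ± 1.59 (SD, n = 5 and 8). These values were not tested.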
